A study of Mus musculus with 18 samples.

Results

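The genes of MHC class II antigen presentation were described in 18 RNA sequencing libraries labelled as mouse mammary gland. They were the 8 rows of the count table named H2-Aa, H2-Ab1, H2-Eb1, Cd74, Ciita, H2-DMa, H2-DMb1 and H2-Oa, out of 23337 rows in all, and all 8 passed the filter on low counts that kept 15482 genes. The glands came from wild type (WT) mice and from mice lacking Cip2a (Cip2a-/-), a gene for an inhibitor of the phosphatase PP2A, all of C57BL/6Jx129 background. Each genotype had 3 glands without treatment, 3 collected 2 weeks after DMBA dosing ended, and 3 endpoint glands. DMBA, a carcinogen that forms DNA adducts, was given by gavage, 1 mg in oil once a week, 6 times, from 12 to 14 weeks of age. The endpoint glands held no tumour and were taken when the mouse was killed because of a DMBA-induced tumour in any tissue, so their age is not fixed by the protocol. No oil-only group was analysed here, so DMBA cannot be told apart from the gavage itself. No age was available here for the untreated mice, so age cannot be told apart from DMBA in comparisons with them. The tissue was whole gland with the lymph nodes left out, so each library mixes fat, epithelium, vessels, muscle and immune cells. The labels do not say that the libraries of a group came from separate animals, and p-values measure only the spread between these libraries.

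MHC class II molecules present peptides from taken-up proteins to CD4+ T cells. Each is a pair of an alpha and a beta chain. It is assembled with the invariant chain CD74, which fills the groove and guides the molecule to endosomes, and H2-DM then exchanges the remaining fragment of CD74 for a peptide, while H2-O restrains H2-DM. Dendritic cells, B cells and activated macrophages are the main cells that make class II, and interferon gamma can induce it in other cells. Transcription of these genes depends on CIITA, a coactivator that does not bind DNA itself and is held at the promoter by the RFX complex, CREB and NF-Y on the X box, a neighbouring element and the Y box. In the mammary gland, class II is known from the dendritic cells and macrophages around the ducts and from B cells.

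The X and Y boxes are shown for the 4 genes in which a search found both, since they are the sequence these genes share. RefSeq promoters of build GRCm38.p6 (250 bases before to 50 after a start) were matched for 5 of the 8 genes, H2-Aa, H2-Eb1, H2-DMa, H2-DMb1 and H2-Oa, all on chromosome 17. The core of the X box was searched as GNAAC, followed on the same strand after 10 to 35 bases by the core of the Y box, TGATTGG, which holds the CCAAT motif on its other strand. The pair was in 4 of these 5 genes, with 26 bases between the cores in H2-Aa, H2-DMb1 and H2-Oa and 25 in H2-Eb1. It was in neither of the 2 H2-DMa windows, chr17:34122582-34122881 and chr17:34125268-34125567. Both lie inside the GENCODE vM21 model of H2-DMa (chr17:34119541-34139101), and the rest of that model was not searched. Whether H2-DMa has the boxes elsewhere cannot be told from these windows. Of all 32851 windows, 101 (0.307%) held the pair on the strand of the gene and 224 (0.682%) on either strand. The 120 bases before the start of each of the 4 genes are given 5′ to 3′ on the strand of the gene, with both cores in capitals, at chr17:34287824-34287943 (minus strand) for H2-Aa, chr17:34305747-34305866 for H2-Eb1, chr17:34153071-34153190 for H2-DMb1 and chr17:34092259-34092378 for H2-Oa (plus strand). The GENCODE vM21 models of H2-DMb1 and H2-Oa start within these stretches.
H2-Aa: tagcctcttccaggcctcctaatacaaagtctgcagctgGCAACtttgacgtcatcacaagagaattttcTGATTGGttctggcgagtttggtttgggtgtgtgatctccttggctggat
H2-Eb1: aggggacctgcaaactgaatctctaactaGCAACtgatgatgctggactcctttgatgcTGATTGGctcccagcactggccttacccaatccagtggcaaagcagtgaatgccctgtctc
H2-DMb1: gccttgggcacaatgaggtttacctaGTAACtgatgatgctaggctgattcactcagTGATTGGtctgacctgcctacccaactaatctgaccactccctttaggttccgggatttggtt
H2-Oa: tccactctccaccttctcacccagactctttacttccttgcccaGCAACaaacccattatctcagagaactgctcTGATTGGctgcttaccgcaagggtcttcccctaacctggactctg
The X core began 81 bases before the start in H2-Aa, 91 in H2-Eb1, 94 in H2-DMb1 and 76 in H2-Oa. A match is a description of the letters in this window, not a test of binding.

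Total counts per library ranged from 16121743 to 24586404. Cip2a, listed under an older symbol, was between 0.831 and 4.88 CPM (counts scaled to a common library size after TMM normalization) in the 9 WT libraries and at most 0.0598 CPM in the 9 Cip2a-/- libraries. Library 1 of the WT endpoint group stood apart: the 6 epithelial markers of gland ducts summed to 21.9 CPM there and to between 405 and 2955 CPM in the other 17 libraries, and the 4 brown fat markers summed to 8139 CPM there and to at most 851 CPM elsewhere. Its 12 B cell markers summed to 2775 CPM, the highest of all libraries. Its 5 skeletal muscle markers summed to 32432 CPM, which was not particular to it: they summed to 52613 CPM in Cip2a-/- 2-week library 1 and to 27688 CPM in WT untreated library 1. The markers of mammary epithelium were thus nearly absent from a library labelled mammary gland, and whether it holds gland tissue was not tested. Results that rest on it are given with and without it.

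The class II chains and the invariant chain were abundant in every gland and differed most between glands of the same group. H2-Aa (chr17:34282744-34287823, minus strand, GRCm38) encodes the alpha chain of the I-A molecule. In untreated glands it was at 757, 406 and 351 CPM in WT libraries 1, 2 and 3 and at 341, 301 and 1146 CPM in Cip2a-/- libraries 1, 2 and 3. At 2 weeks it was at 379, 301 and 257 CPM in WT and at 126, 421 and 366 CPM in Cip2a-/- glands, in the same order. At the endpoint it was at 1512, 221 and 121 CPM in WT and at 413, 128 and 386 CPM in Cip2a-/- glands. The 2 genotypes overlapped in each condition, and the WT endpoint group held both the highest and the lowest of the 18 values. H2-Ab1 (chr17:34257689-34269419, plus strand), the I-A beta chain, ranged from 85.0 to 1194 CPM. H2-Eb1 (chr17:34305867-34316674, plus strand), the beta chain of the I-E molecule, ranged from 85.6 to 1158 CPM. The E alpha gene is disrupted in C57BL/6 mice, and its pseudogene row, H2-Ea-ps, held 2 reads over all libraries.

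Cd74 (chr18:60803848-60812652, plus strand) encodes the invariant chain. In untreated glands it was at 2013, 933 and 749 CPM in WT libraries 1, 2 and 3 and at 680.0, 632 and 2583 CPM in Cip2a-/- libraries 1, 2 and 3. At 2 weeks it was at 772, 645 and 514 CPM in WT and at 210.2, 952 and 856 CPM in Cip2a-/- glands. At the endpoint it was at 3815, 457 and 291 CPM in WT and at 1041, 273 and 852 CPM in Cip2a-/- glands. WT endpoint library 1 was highest and Cip2a-/- 2-week library 1 lowest, an 18.1-fold range. Per kilobase of exon, Cd74 was the most abundant of the 8 genes in all 18 libraries, with a median level of 453 CPM per kilobase. H2-Eb1 was second in all 18, with a median level of 131 CPM per kilobase, followed by H2-Ab1 at 98.0 and H2-Aa at 94.4.

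**Figure D1:**
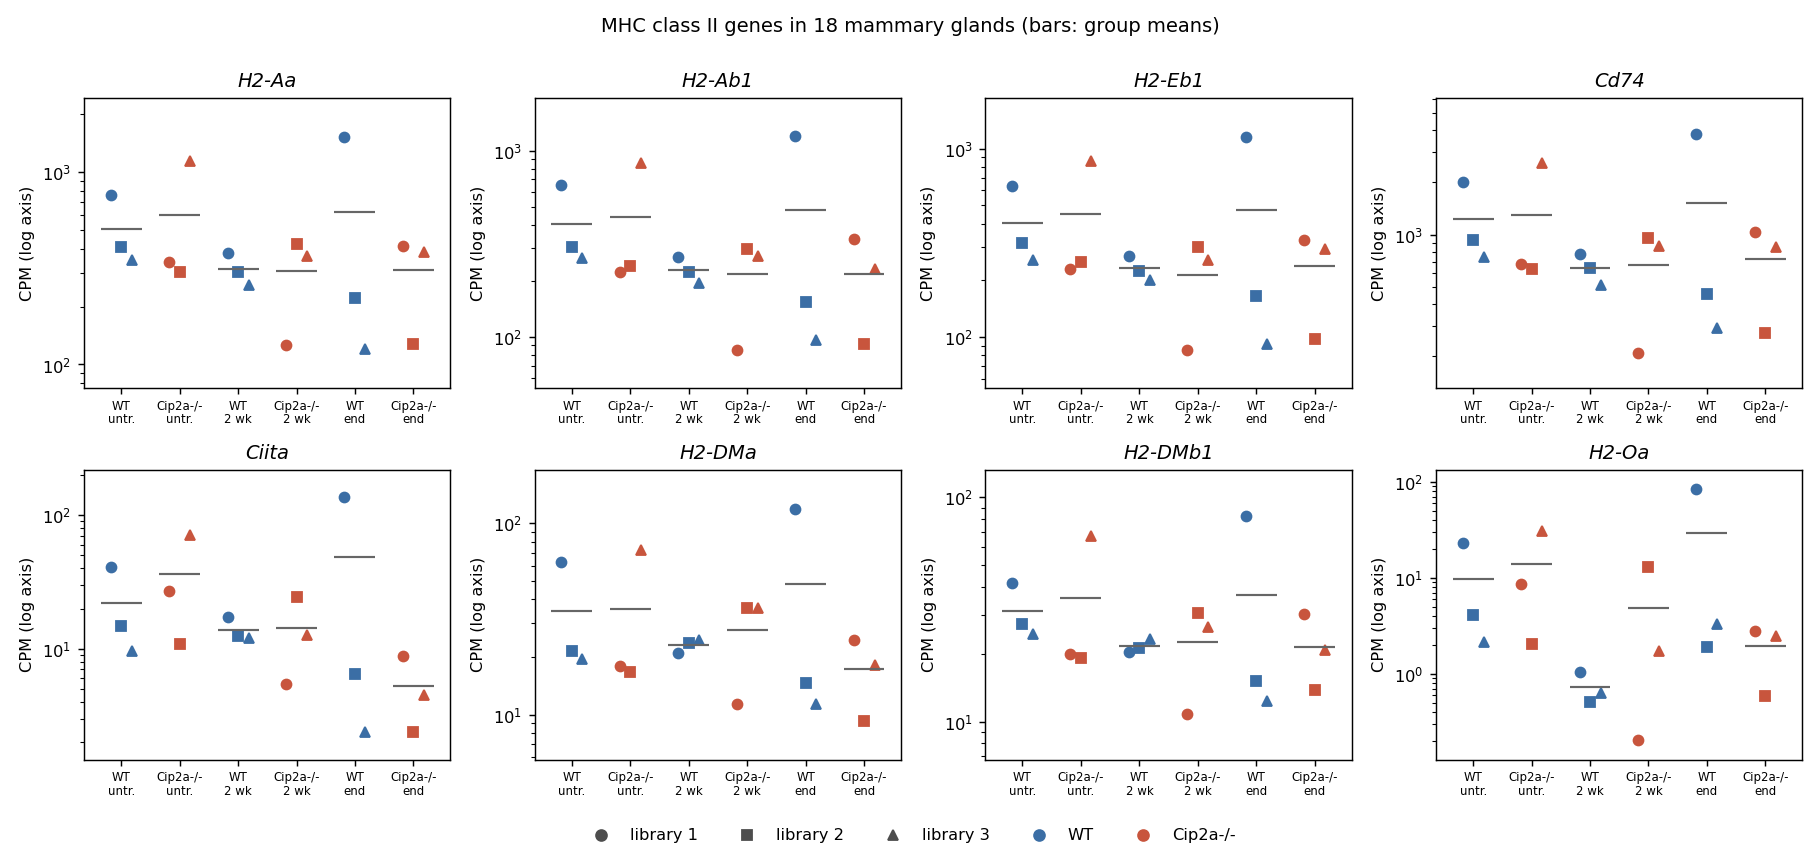
Level of each of the 8 class II genes in CPM (vertical log axis) in the 6 groups (horizontal axis: untreated, 2 weeks, endpoint, in both genotypes). Each symbol is 1 library, its shape gives the library number, and bars are group means of 3 libraries; WT endpoint library 1 is the highest symbol in all 8 panels.

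The peptide-loading genes were far less abundant. H2-DMa (chr17:34119541-34139101, plus strand) and H2-DMb1 (chr17:34153072-34160230, plus strand) encode the chains of the peptide exchanger H2-DM. H2-DMa ranged from 9.30 to 118.8 CPM and H2-DMb1 from 10.8 to 82.9 CPM. H2-DMb1 was at 41.6, 27.4 and 24.5 CPM in WT untreated libraries 1, 2 and 3 and at 20.4, 21.3 and 23.3 CPM in the WT 2-week libraries. These 2 groups thus did not overlap, as was so for 25.8% of all genes tested. The median level per kilobase was 13.3 CPM for H2-DMb1 and 6.14 CPM for H2-DMa. H2-DMb1 has a near copy, H2-DMb2, and reads of the 2 may have been split between them, because it is not stated how reads that fit several places were handled. H2-DMa, H2-Eb1, Ciita and H2-Oa each overlap a gene on the other strand, and the strand setting of the counting is likewise not stated.

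H2-Oa (chr17:34092340-34095234, plus strand) encodes the alpha chain of H2-O, which restrains H2-DM and is known mainly from B cells. It was the most variable of the 8 genes. In untreated glands it was at 23.0, 4.13 and 2.16 CPM in WT libraries 1, 2 and 3 and at 8.55, 2.04 and 31.0 CPM in Cip2a-/- libraries 1, 2 and 3. At 2 weeks it was at 1.06, 0.511 and 0.631 CPM in WT and at 0.206, 12.8 and 1.72 CPM in Cip2a-/- glands. At the endpoint it was at 83.0, 1.90 and 3.29 CPM in WT and at 2.81, 0.591 and 2.49 CPM in Cip2a-/- glands. All 3 WT 2-week values lay below every untreated value. Over all genes tested, 25.8% had WT 2-week and WT untreated libraries that did not overlap. For H2-Oa, Cip2a-/- 2-week library 2 lay above both other libraries of its group. The lowest value rests on 3 reads and the highest on 1310 reads, a 404-fold range.

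Ciita (chr16:10480059-10528418, plus strand) encodes the coactivator of the class II promoters. In untreated glands it was at 41.1, 14.7 and 9.64 CPM in WT libraries 1, 2 and 3 and at 26.8, 10.9 and 71.1 CPM in Cip2a-/- libraries 1, 2 and 3. At 2 weeks it was at 17.2, 12.5 and 12.1 CPM in WT and at 5.41, 24.5 and 12.7 CPM in Cip2a-/- glands. At the endpoint it was at 136.3, 6.46 and 2.40 CPM in WT and at 8.87, 2.36 and 4.48 CPM in Cip2a-/- glands. All 3 Cip2a-/- endpoint values lay below all 3 Cip2a-/- untreated values, and these 2 groups did not overlap for 17.6% of all genes tested. For Ciita, WT endpoint library 1 lay above every other library. Ciita had the lowest median level per kilobase, 1.29 CPM, beside 1.65 CPM for H2-Oa. It lies on the same chromosome as Cip2a, 38.5 Mb away.

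The spread between libraries of a group was wide for all 8 genes. The within-group SD of log2 CPM was 0.86 for H2-DMb1, between 1.08 and 1.19 for the 3 chains, Cd74 and H2-DMa, 1.53 for Ciita and 2.00 for H2-Oa, against a median of 0.41 over all genes tested. Between 82.3% (H2-DMb1) and 97.9% (H2-Oa) of the genes tested had a smaller SD. The 8 genes were high and low in the same libraries. All 8 were highest of their group in WT untreated library 1, Cip2a-/- untreated library 3, Cip2a-/- 2-week library 2, WT endpoint library 1 and Cip2a-/- endpoint library 1. All 8 were lowest of their group in WT untreated library 3, Cip2a-/- 2-week library 1 and Cip2a-/- endpoint library 2. In Cip2a-/- 2-week library 1 the 5 skeletal muscle markers summed to 52613 CPM, the highest of all libraries, and the part of this in its class II levels was not tested. The WT 2-week group was the exception, with small differences: its SD of log2 CPM was 0.28 for H2-Aa, against 1.90 in the WT endpoint group. Together the 8 genes took between 0.0484% and 0.726% of the counts of a library.

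Ranked by mean log2 CPM, the 2 untreated groups were highest for 7 of the 8 genes, all but H2-Oa, for which the WT endpoint group came between them. Of the 40 steps between neighbouring groups in these orders, 39 were smaller than the larger SD of the 2 groups. The exception was Ciita, whose mean log2 CPM was 3.59 ± 1.08 (SD, n = 3) in the Cip2a-/- 2-week group and 2.22 ± 0.93 (SD, n = 3) in the Cip2a-/- endpoint group. This step was not tested. Ranked by mean CPM instead, the WT endpoint group was highest for each of the 8 genes. Cd74, for example, had a mean of 1521 CPM there, against 1298 CPM in the Cip2a-/- and 1231 CPM in the WT untreated group. WT endpoint library 1 held the highest value of each gene.

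**Figure D2:**
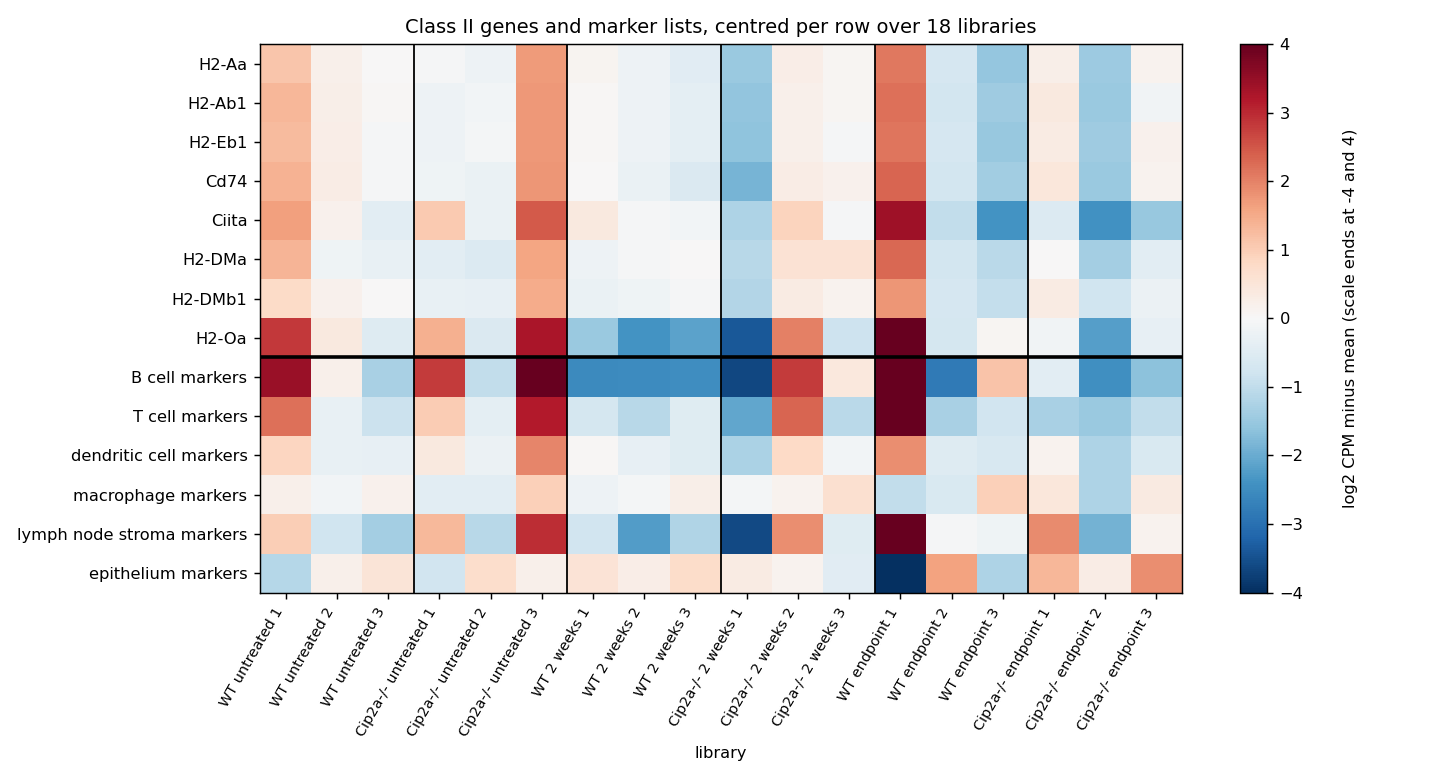
Log2 CPM of the 8 class II genes and mean of 6 marker lists (rows) in the 18 libraries (columns), centred per row on the mean of all libraries, with red above and blue below. The class II rows share their red and blue columns, and the macrophage row does not follow them.

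Loss of Cip2a was compared with WT in each condition, to ask whether class II expression depends on the genotype. None of the 8 genes was called (edgeR quasi-likelihood F-test, Benjamini-Hochberg adjusted p under 0.05 over 15482 genes) in untreated glands, where 0.0% of genes were called, at 2 weeks (0.00646%), at the endpoint (0.00646%) or on average over the 3 conditions (0.00646%). DESeq2 also called 0 of 8 in each. At an unadjusted p under 0.05 there were 0 of 8 in untreated glands, 0 at 2 weeks, 2 at the endpoint and 0 on average. In untreated glands the 8 class II genes had a median log2 fold change of 0.17, with 8 of 8 above 0, beside 0.04 over all genes tested; without Cip2a-/- untreated library 3 it was -0.78, with 0 of 8 above 0. Ciita had the largest estimate there, 0.73 (SE 1.11), and -0.21 without that library. At 2 weeks the median was 0.05, beside 0.04 over all genes.

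At the endpoint all 8 estimates were lower in Cip2a-/- glands, and this rested on WT endpoint library 1. The log2 fold change was -1.0 (95% interval -2.74 to 0.74) for H2-Aa, -1.14 for H2-Ab1, -0.98 for H2-Eb1 and -1.08 for Cd74. It was -1.47 for H2-DMa and -0.76 for H2-DMb1. The 2 genes with an unadjusted p under 0.05 were Ciita, at -3.20 (SE 1.21, edgeR adjusted p 0.458), and H2-Oa, at -3.90 (SE 1.61, edgeR adjusted p 0.458), where 10.7% of all genes had such a p. Without WT endpoint library 1 the estimates turned to 0.82 for H2-Aa, 0.77 for H2-Ab1, 0.86 for H2-Eb1, 0.91 for Cd74, 0.39 for H2-DMa, 0.62 for H2-DMb1 and 0.20 for Ciita, while H2-Oa was at -0.43. In the 2 other WT endpoint libraries Cd74 was at 457 and 291 CPM, within the range of the Cip2a-/- endpoint libraries. Whether a gland has fewer cells of a type or less RNA per cell cannot be told apart in whole tissue.

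**Figure D3:**
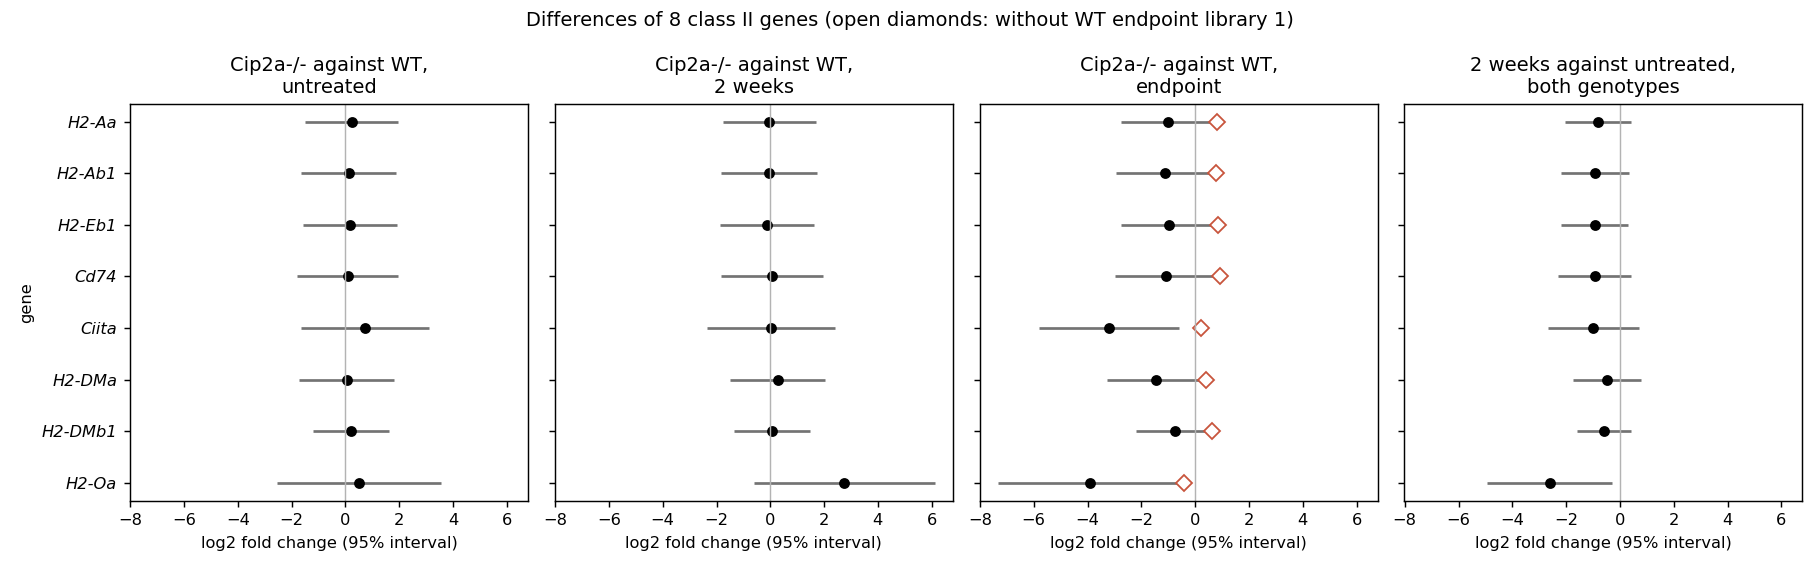
Log2 fold change with 95% interval (horizontal axis) of the 8 class II genes (vertical axis) in 4 comparisons. In the endpoint panel the filled points are all below 0, and the open diamonds, the values without WT endpoint library 1, are above 0 for 7 of 8 genes.

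The effect of DMBA was compared first at 2 weeks against untreated glands. The 8 genes were estimated lower in both genotypes, and none was called in WT (0.0% of genes called), in Cip2a-/- (0.0129%) or averaged over the genotypes (0.0258%) by edgeR, nor by DESeq2. Averaged over the genotypes the log2 fold change was -0.83 (95% interval -2.06 to 0.40) for H2-Aa, -0.92 for H2-Ab1, -0.93 for H2-Eb1 and -0.94 for Cd74. It was -0.47 for H2-DMa, which turned to 0.05 without Cip2a-/- untreated library 3, and -0.59 for H2-DMb1. Ciita was at -1.0 (SE 0.79). H2-Oa had the largest estimate, -2.61 (SE 1.09, p 0.0306, edgeR adjusted p 0.734), and was the 1 gene of 8 with an unadjusted p under 0.05, where 6.57% of all genes had such a p. The median of the 8 was -0.93, beside -0.00049 over all genes tested, and -0.45 without Cip2a-/- untreated library 3.

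Within WT glands H2-Oa was at -3.73 (SE 1.63, edgeR adjusted p 0.953), and it was 1 of the 2 genes, with H2-DMb1, whose WT untreated and 2-week libraries did not overlap, as was so for 25.8% of all genes tested. The 12 B cell markers summed to between 22.8 and 710 CPM in the WT untreated libraries and to between 9.34 and 10.3 CPM in the WT 2-week libraries. The part of this in the H2-Oa result was not tested. Within Cip2a-/- glands H2-Oa was at -1.48 (SE 1.46) and Ciita at -1.35 (SE 1.13). Without Cip2a-/- untreated library 3 they were at -0.095 and -0.41, and without Cip2a-/- 2-week library 2 at -3.80 and -1.99. The WT and Cip2a-/- 2-week groups differed in H2-Oa by 2.75 (SE 1.57, edgeR adjusted p 1.00), and by 0.43 without Cip2a-/- 2-week library 2, which was at 12.8 CPM. The interaction of genotype and DMBA at 2 weeks was called for 0 of 8 genes by edgeR and by DESeq2, with 0 of 8 at an unadjusted p under 0.05 and 0.0% of genes called. For H2-Oa this interaction was 2.24 (SE 2.09), and -0.07 without Cip2a-/- 2-week library 2.

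The endpoint was then compared with untreated glands. None of the 8 genes was called in WT (0.0323% of genes called), in Cip2a-/- (0.0%) or on average (0.252%) by edgeR, nor by DESeq2, and at an unadjusted p under 0.05 there were 0, 1 and 0 of 8, beside 12%, 14.6% and 16.9% of all genes. In Cip2a-/- glands all 8 estimates were below 0, with a median of -0.98, and of -0.03 without Cip2a-/- untreated library 3. Ciita was the gene with an unadjusted p under 0.05, at -2.79 (SE 1.19, p 0.0338, edgeR adjusted p 0.319), and the only 1 of 8 whose 2 groups did not overlap, as was so for 17.6% of all genes tested. Without Cip2a-/- untreated library 3 it was at -1.85. H2-Oa was at -2.81 (SE 1.54), and at -1.43 without that library. In WT glands Ciita was at 1.15 (SE 1.12) and H2-Oa at 1.59 (SE 1.46), and without WT endpoint library 1 at -2.30 and -1.93. Averaged over the genotypes Ciita was at -0.82 (SE 0.79, edgeR adjusted p 0.641), and without WT endpoint library 1 at -2.55 (SE 0.61, edgeR adjusted p 0.0511), short of the threshold. In that setting all 8 averaged estimates were below 0, with a median of -1.29.

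The interaction of genotype and DMBA at the endpoint was called for 0 of 8 genes by edgeR and by DESeq2, where 0.0% of genes were called, and 1 of 8 had an unadjusted p under 0.05, beside 10% of all genes. That gene was Ciita, at -3.93 (SE 1.63, edgeR adjusted p 0.490), beside -4.40 (SE 2.12) for H2-Oa. Without WT endpoint library 1 these values were -0.50 and -0.90. The endpoint was also compared with 2 weeks, averaged over the genotypes. There 13.4% of all genes were called by edgeR and 0 of the 8 class II genes, with 0 of 8 at an unadjusted p under 0.05, beside 30.1% of all genes, and 0 called by DESeq2. All 8 estimates were above 0, with a median of 0.52, and the largest was 1.99 (SE 1.07, edgeR adjusted p 0.228) for H2-Oa. Without WT endpoint library 1 the median was -0.40, with 1 of 8 above 0. The comparisons with untreated glands and with WT glands share libraries with each other and are not independent.

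Ratios within a library show which of the genes kept step; they were chosen after the data were seen. A ratio here is a difference of log2 CPM, and the chains stand for the mean log2 CPM of H2-Aa, H2-Ab1 and H2-Eb1. Cd74 was between 1.11 and 1.58 above the chains in all 18 libraries, a range of 0.46, while Cd74 itself varied 18.1-fold. H2-Aa was between 0.22 and 0.74 above H2-Ab1. H2-DM, the mean of its 2 chains, was between -3.92 and -3.10 relative to the class II chains. These 3 ratios varied by less than 1 log2 unit over all glands.

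Ciita and H2-Oa departed from the other genes. Ciita relative to the chains ranged from -6.02 to -3.23. It was at -5.31, -5.41 and -6.02 in Cip2a-/- endpoint libraries 1, 2 and 3, and at -3.23, -4.76 and -5.35 in WT endpoint libraries 1, 2 and 3. The 3 Cip2a-/- endpoint values and WT endpoint library 3 were the 4 lowest of all libraries, and the untreated and 2-week libraries lay between -4.88 and -3.26. H2-Oa relative to H2-DM ranged from -5.20 in WT 2-week library 2 to -0.26 in WT endpoint library 1.

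**Figure D4:**
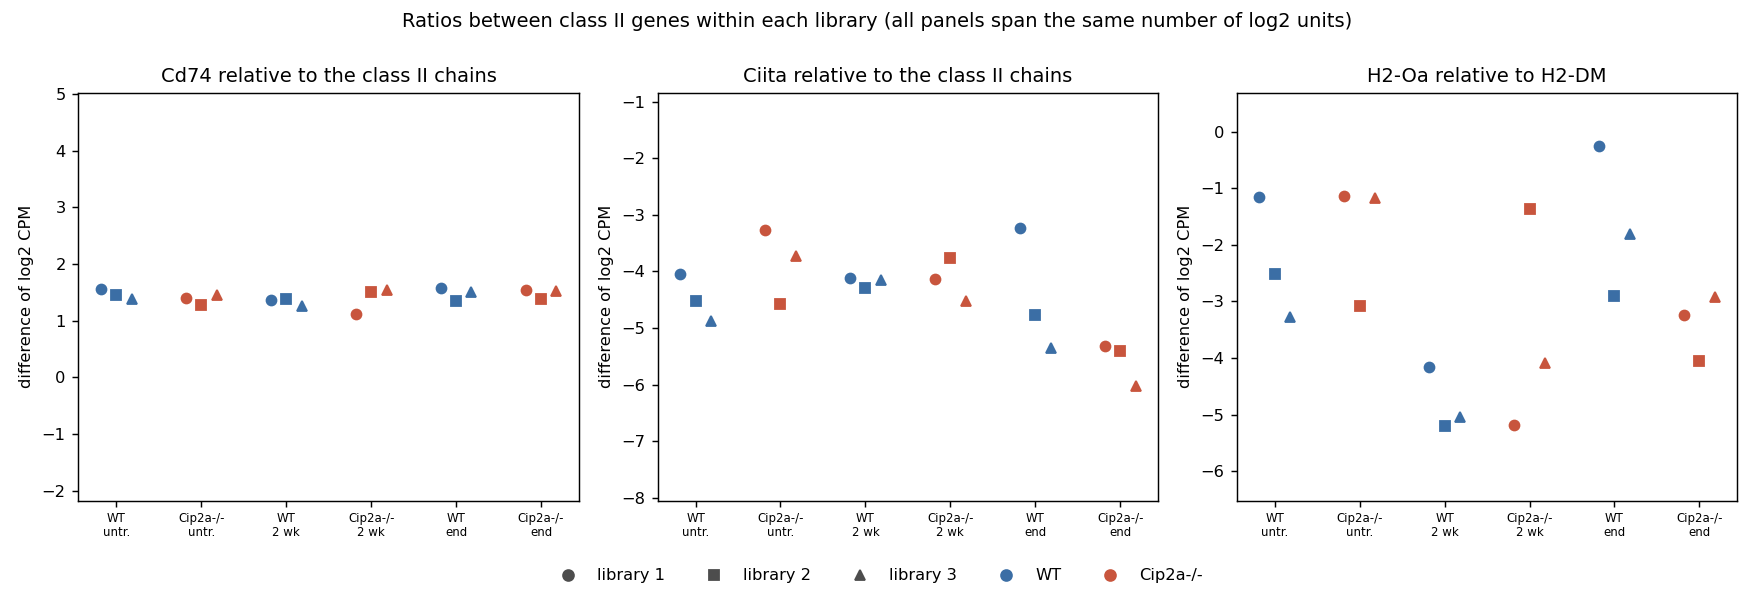
Difference of log2 CPM within a library (vertical axis, the same number of log2 units in all 3 panels) by group (horizontal axis) for Cd74 and Ciita relative to the mean of the 3 class II chains and for H2-Oa relative to H2-DM. Each symbol is 1 library; Cd74 spans 0.46, Ciita 2.79 and H2-Oa 4.94 log2 units.

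None of 20 tests on 5 such ratios (exact two-sided permutation tests with libraries exchanged within a genotype or condition, adjusted over the 20) passed the threshold. Ciita relative to the chains was lower at the endpoint than at 2 weeks by an estimate of -0.85 (exact permutation p 0.065, adjusted 0.383) and than in untreated glands by -0.85 (exact permutation p 0.115, adjusted 0.383). Without WT endpoint library 1 both estimates were -1.15 (exact permutation tests, adjusted p 0.1). H2-Oa relative to H2-DM was at -2.12 for 2 weeks against untreated glands (exact permutation p 0.02, adjusted 0.2), and H2-DM relative to the class II chains at 0.41 (exact permutation p 0.02, adjusted 0.2). The smallest p that these permutation tests could have reached was 0.005 for the 15 tests between conditions and 0.00025 for the 5 between genotypes.

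The class II score moved with the scores of lymphoid and dendritic cell marker lists and not with that of macrophages. A score, the mean over a list of the centred log2 CPM, was computed for the 8 class II genes and for each marker list in all 18 libraries, which share 6 groups and whole-gland composition; the correlations are given as descriptions. The class II score had a Pearson r of 0.96 with 10 dendritic cell markers (Spearman rho 0.92, and r of 0.93 without WT endpoint library 1 and Cip2a-/- untreated library 3). It had r of 0.90 with 9 T cell markers (rho 0.78, and 0.78 without those 2 libraries) and r of 0.84 with 12 B cell markers (rho 0.81, and 0.70). With 11 macrophage markers r was 0.08 (rho 0.15, and 0.26). After removal of the group means these values were 0.98, 0.90, 0.86 and 0.09. With 6 epithelial markers r was -0.57. Within the dendritic cell list 8 of 10 markers had r between 0.65 and 0.95 with the class II score, the highest being Flt3, a growth factor receptor of dendritic cell precursors. The other two were Zbtb46, a transcription factor of classical dendritic cells, with r of -0.39, and Clec10a, a lectin also made by macrophages, with r of -0.086. Zbtb46 was at 10.2 CPM in WT endpoint library 1 and 11.4 CPM in Cip2a-/- untreated library 3, the libraries highest in class II, and at 26.2 CPM in Cip2a-/- endpoint library 3.

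**Figure D5:**
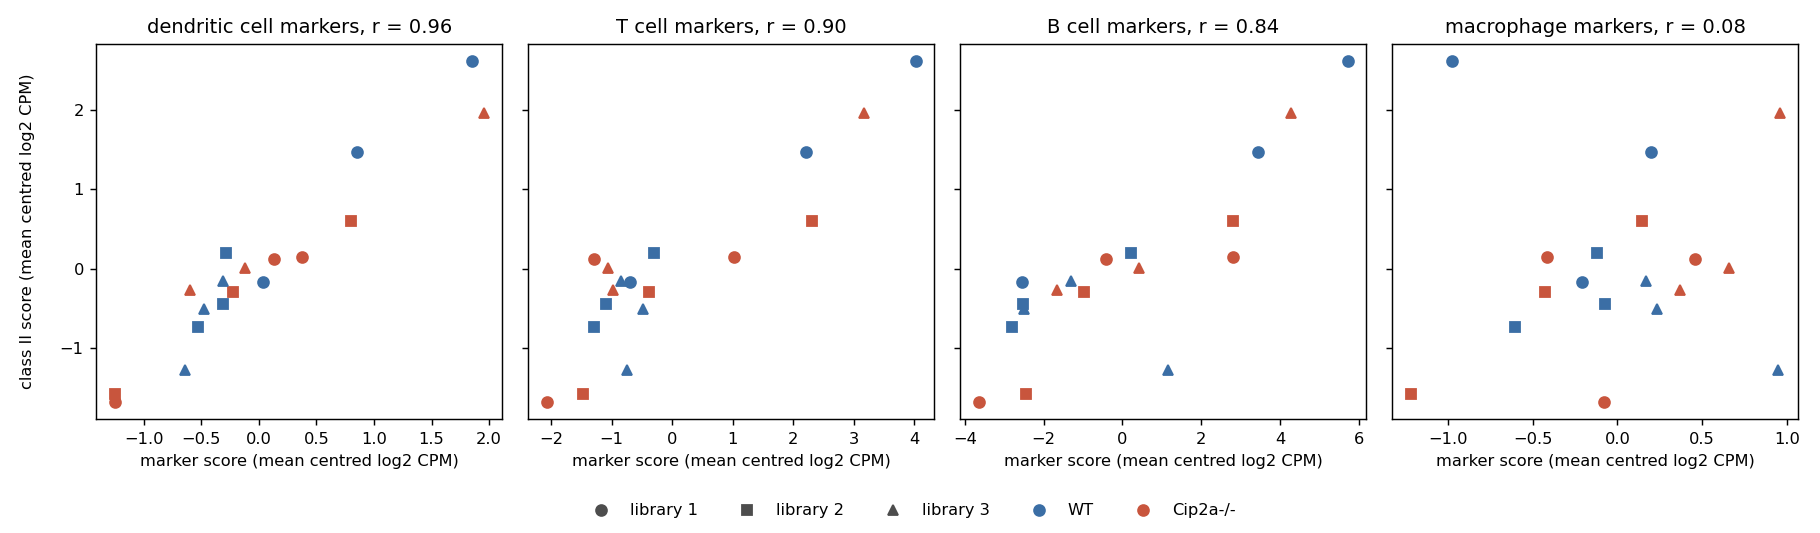
Class II score (vertical axis, mean centred log2 CPM of 8 genes) against the score of 4 marker lists (horizontal axes, mean centred log2 CPM). Each symbol is 1 of 18 libraries; the points rise together for dendritic, T and B cell markers (r of 0.96, 0.90 and 0.84) and scatter for macrophage markers (r of 0.08).

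The genes differed most in how closely they followed the B cell list. H2-Oa had r of 0.95 with the B cell score, 0.93 with the T cell score and 0.90 with the dendritic cell score, and after removal of the group means 0.95, 0.96 and 0.96. With the B cell score r was 0.73 for H2-Eb1, 0.74 for H2-Aa, 0.77 for Cd74 and 0.76 for Ciita. The 3 chains, Cd74 and H2-DMb1 had r between 0.91 and 0.92 with the dendritic cell score, and Ciita 0.92. Among the 8 genes, pairs of the chains and Cd74 had r between 0.99 and 1.00, and pairs with H2-Oa had the lowest values, between 0.77 and 0.84. In WT endpoint library 3 the B cell markers summed to 472 CPM, above most libraries. The 8 class II genes of that library summed to 629 CPM, with H2-Oa at 3.29 CPM.

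The marker sums also differed between libraries of a group. B cell markers summed to between 28.8 and 1072 CPM in Cip2a-/- untreated, 5.0 and 354 CPM in Cip2a-/- 2-week, 8.05 and 2775 CPM in WT endpoint and 8.27 and 64.0 CPM in Cip2a-/- endpoint libraries. Dendritic cell markers summed to between 65.0 and 281 CPM over all groups and macrophage markers to between 299 and 1615 CPM, with no marker at 0 in any library. Of the dendritic cell markers, Clec10a had the highest median over the libraries, 69.1 CPM, followed by Zbtb46 at 14.3 CPM. The others had medians from 0.684 CPM (Xcr1) to 10.7 CPM (Itgax), so the sum mostly reflects markers that did not follow class II. The B cell markers Ms4a1, Pax5 and Cr2 were at 0 in 1 library each. Markers of lymph node stroma, a tissue the protocol left out, summed to 719 CPM in WT endpoint library 1, 588 CPM in Cip2a-/- endpoint library 1 and 291 CPM in Cip2a-/- untreated library 3, against 1.23 CPM in Cip2a-/- 2-week library 1, and Ccl21a of that list was at 0 in all 18. All 8 class II genes were highest of their group in the first 3 of these libraries and lowest in the last. In Cip2a-/- endpoint library 1 most of the lymph node stroma sum was 1 gene, Glycam1, at 570 CPM. Which cells of the gland this Glycam1 RNA came from was not tested, so the sum there need not mark lymph node tissue. Cxcl13 was at 2.51 CPM in that library. Its T cell markers summed to 18.3 CPM and its epithelial markers to 2297 CPM. The score of this list, Glycam1 included, had r of 0.85 with the class II score, and its part in the class II levels was not tested.

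The 8 genes outside the list whose log2 CPM was most like the class II score, among 11233 with a mean of at least 5 CPM, were Tlr9, Arhgap9, Zap70, Cybb, Lcp2, Rnase6, Itgb7 and Evi2b. Their Pearson r over 18 libraries ran from 0.96 for Tlr9, an endosomal receptor for unmethylated DNA, to 0.94 for Evi2b, against a median of -0.03 over all candidates. Cybb encodes a subunit of the phagocyte oxidase, Zap70 a kinase of T cell receptor signalling, Lcp2 an adaptor of the same pathway, and Itgb7 an integrin chain of lymphocytes. Without the 2 libraries farthest from the median score, r was between 0.87 and 0.92. A promoter window was found for 7 of these 8 genes, and 0 of the 7 held the X and Y core pair.

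The other genes of the pathway were taken from fixed lists. Of the other class II genes, 3 were tested and none was called in any of the 13 comparisons by edgeR. They ranged more widely than the chains: H2-Ob, the beta chain of H2-O, was between 0.806 and 225 CPM, H2-DMb2 between 0.548 and 141.0 CPM and H2-Eb2 between 0 and 48.7 CPM. These 3 were chosen for naming after their values were seen. Of these 3 genes, 2 (H2-Ob and H2-Eb2) held the X and Y core pair. At the endpoint their median log2 fold change in Cip2a-/- against WT glands was -5.22, beside -1.11 for the 8 genes, and without WT endpoint library 1 these medians were -0.70 and 0.69. All 3 were highest in WT endpoint library 1.

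The 7 DNA-binding partners of CIITA (RFX subunits, NF-Y subunits and CREB) varied little, and none of the 7 was called in any comparison by edgeR. Rfx5, the RFX subunit that contacts the X box, was between 21.6 and 56.4 CPM, a far narrower range than that of Ciita. At the endpoint their median log2 fold change in Cip2a-/- against WT glands was -0.30, with 6 of 7 below 0, and -0.11 without WT endpoint library 1. Of 9 genes listed under loading proteases and turnover of the pathway, none was called. Ctss, the protease that trims the invariant chain, was between 19.8 and 232 CPM. Of 9 genes of the interferon gamma axis, 1 was called in 1 comparison, the endpoint against 2 weeks, where 13.4% of all genes were called. Jak1, a kinase of the interferon receptor, was lower at the endpoint than at 2 weeks, by a log2 fold change of -0.48 (SE 0.14, edgeR adjusted p 0.0394), and lost its call in 15 of 25 alternatives, 14 of them with 1 library left out, at adjusted p up to 0.0886. Ifng, the cytokine itself, was at most 1.39 CPM. Of 10 class I presentation genes, none was called in any comparison, and the class I score had r of 0.73 with the class II score (0.43 without the 2 libraries above).

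Of the macrophage markers, 1 of 11 was called, also for the endpoint against 2 weeks, where 13.4% of all genes were called. Mrc1, a mannose receptor of tissue macrophages, was at -1.20 (SE 0.38, edgeR adjusted p 0.0495), and lost its call in 19 of 25 alternatives, at adjusted p up to 0.104. The B cell and dendritic cell markers held no called gene in any of the 13 comparisons. For B cell markers the median log2 fold change in Cip2a-/- against WT glands at the endpoint was -5.14, with 12 of 12 below 0, and for dendritic cell markers -1.08, with 8 of 10 below 0, beside -1.11 for the 8 class II genes and -0.02 over all genes tested. Without WT endpoint library 1 these medians were -1.57 for B cell markers, with 9 of 12 below 0, 0.13 for dendritic cell markers, with 4 of 10 below 0, 0.69 for the 8 class II genes and -0.02 over all genes. At 2 weeks against untreated glands, averaged over the genotypes, the medians were -3.42 for B cell, -0.56 for dendritic cell and -0.01 for macrophage markers, beside -0.93 for the 8 class II genes. Without Cip2a-/- untreated library 3 they were -2.79, -0.29 and 0.27, beside -0.45. T cell, epithelial, skeletal muscle and white fat markers held no called gene either. Madcam1 of the lymph node list, an addressin of vessels that lymphocytes enter through, was higher at the endpoint than at 2 weeks by a log2 fold change of 3.09 (edgeR adjusted p 0.00752) and lost its call in 0 of 25 alternatives. Elovl3 of the brown fat list, a fatty acid elongase, was higher by 3.27 (edgeR adjusted p 0.0488) and lost its call in 19 of 25, with 1.56 without WT endpoint library 1. The part of these cell types in the class II values was not tested.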

How the data were processed

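RNA was measured by sequencing in 18 mouse mammary glands, 3 libraries in each of 6 groups, with libraries prepared after a stranded mRNA guide, per the labels' protocols. bcl2fastq 2.17, STAR 2.5.2b, Subread 1.5.1 and genome build mm10 are the tools and build listed in the submitters' processing notes. Values were deposited as raw whole-number read counts per gene symbol, per the file headers. The sources used here do not give the annotation, the strand setting or the treatment of reads with several matches. Everything else was computed from these counts with edgeR 4.0.16 under R 4.3.3. Low-count genes were removed with filterByExpr (at least 10 counts, total at least 15), library sizes were TMM-scaled, and the 18 libraries entered 1 quasi-likelihood model with 1 coefficient for each group. Each of 13 contrasts was tested by the F-test with Benjamini-Hochberg adjustment over all genes tested, and called means an adjusted p below 0.05. Log2 CPM used a prior count of 2. The script was tested on simulated data.

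Alternatives were DESeq2 1.42.0, RLE scaling, no low-count filter, a minimum count of 30, a replicate block, a fit to only the groups compared, and each library left out; leaving out WT endpoint library 1 and Cip2a-/- untreated library 3 together, the ratios with exact permutation tests, and list medians without either library, were added after the data were seen. Coordinates and exon lengths are those of GENCODE vM21 (GRCm38), and promoters those of RefSeq (GRCm38.p6); for H2-Ab1, Cd74 and Ciita no promoter is shown. The 8 genes and the gene lists were chosen with earlier results of these data known. Named are all 8 genes, genes of the other lists that were called or are defining markers beside a result, and the 8 genes most like the class II score.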

Additional observations from a re-analysis of the deposited data

How the results depend on the processing

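None of the 8 class II genes was called in any of the 324 recomputations of the 13 comparisons under 25 alternative settings. Of the 144 values of 8 genes in 18 libraries, 12 rest on under 50 reads, 10 of them of H2-Oa and 2 of Ciita. Estimates changed direction when 1 library was left out, and the cause was not tested. Over the fits without 1 library each, Cip2a-/- against WT at the endpoint ranged from -1.46 to 0.82 for H2-Aa, -1.62 to 0.77 for H2-Ab1, -1.44 to 0.86 for H2-Eb1, -1.54 to 0.91 for Cd74, -3.85 to 0.20 for Ciita, -1.91 to 0.39 for H2-DMa and -1.15 to 0.62 for H2-DMb1. Ciita in Cip2a-/- against WT untreated glands ranged from -0.21 to 1.56, H2-DMa at 2 weeks against untreated from -0.64 to 0.047, Ciita and H2-Oa in WT endpoint against untreated glands from -2.30 to 1.98 and from -1.93 to 3.22, and the H2-Oa interaction at 2 weeks from -0.072 to 3.63.

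Without WT endpoint library 1 and Cip2a-/- untreated library 3 together, the endpoint values of Cip2a-/- against WT were 0.85 for H2-Aa, 0.80 for H2-Ab1, 0.89 for H2-Eb1, 0.95 for Cd74, 0.23 for Ciita, 0.42 for H2-DMa and 0.65 for H2-DMb1. In the same setting Ciita in untreated glands was -0.21, H2-DMa at 2 weeks 0.047, Ciita and H2-Oa in WT endpoint against untreated glands -2.29 and -1.92, and the endpoint interactions of Ciita and H2-Oa 0.44 and 0.49, against -4.78 to -0.50 and -6.05 to -0.90 with 1 library left out.

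Over all genes tested, DESeq2 called 308 genes for the endpoint against untreated in WT, where edgeR called 5, 273 in Cip2a-/-, where edgeR called 0, and 828 on average, where edgeR called 39. For the endpoint against 2 weeks DESeq2 called 3245 and edgeR 2067, which was 605 in a fit to only the groups compared and 978 to 2610 with 1 library left out; for the averaged endpoint against untreated these were 4 and 2 to 279. In the other comparisons against untreated, DESeq2 called 15 in WT, 36 in Cip2a-/- and 88 on average at 2 weeks, where edgeR called 0, 2 and 4. For Cip2a-/- against WT it called 6 in untreated glands, 3 at 2 weeks, 78 at the endpoint and 3 on average, and 7 and 34 for the interactions, where edgeR called 0, 1, 1, 1, 0 and 0. Deviations of libraries with the same replicate number had correlations from -0.482 to 0.686 (18 of 45 pairs over 0.1, median 0.00226). Pairs with unlike numbers were not compared. The numbers were not taken to pair the samples. With the replicate block, 0 of the 8 class II genes were called in every comparison, Ciita at the endpoint in Cip2a-/- against WT was -2.65 and H2-Oa -3.17, and the count over all genes for the endpoint in WT was 20 in place of 5.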
